A study of Mus musculus with 12 samples.

Results

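The actin cytoskeleton and motility genes examined here are 42 genes for actin itself, actin-binding proteins, the Arp2/3 complex, its activators and the movement of leukocytes. They were given as a list of gene symbols, and each was found as 1 of the 47643 gene identifiers in the count table. Bulk gene expression was measured in cells sorted from the brains of 5 old male p16-3MR mice on a C57BL/6 background, aged 113, 115, 116, 116 and 116 weeks (mice 1 to 5). All 5 mice carry the p16-3MR transgene, in which the p16 promoter drives a red fluorescent protein (RFP) fused to Renilla luciferase and a truncated viral thymidine kinase. Each mouse gave 1 sample of viable cells with low RFP (RFPneg) and 1 with high RFP (RFPpos), and the labels name no treatment. The comparison asks how the actin genes differ between the RFPpos and RFPneg cells of the same brain. The sort was on the reporter and not on a cell type, so that both samples can hold several cell types. Coordinates are those of GENCODE M21 on GRCm38.

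Actin is a globular protein that polymerizes into filaments, and cells use these filaments to push out their membrane, to crawl and to engulf particles. Monomer-binding proteins such as thymosins and profilins hold the reserve of free actin, while cofilin and gelsolin cut filaments and capping proteins block their ends. The Arp2/3 complex starts side branches on existing filaments when WASP or WAVE proteins activate it, and these proteins are switched on by small GTPases. Microglia, the resident macrophages of the brain, survey the tissue with actin-driven processes and express the leukocyte forms of several of these proteins. Of the 42 genes, 10 are such leukocyte forms or regulators.

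Counts on genes ranged from 177287 to 415834 in the RFPneg samples and from 222560 to 289713 in the RFPpos samples, and levels are given as CPM, a gene's counts scaled to a common total of counts on genes. The libraries count 1 tag near the 3′ end of a transcript, so that CPM values of different genes can be compared without a correction for length. Reads on no gene made up 32.1% to 37.2% in RFPneg and 38.4% to 48.6% in RFPpos. *Cdkn2a*, the gene of p16, had 8 counts in the RFPneg samples together and 0 in every RFPpos sample, where 0 allows up to 3 counts per library, so that these counts do not check the sort. The makeup of the samples differed between the populations. All 20 microglia markers rose, and together they took 1.493% to 2.304% of the counts in RFPneg and 3.30% to 4.38% in RFPpos. Of the 12 endothelial markers 10 were tested and 10 fell, with summed shares of 0.201% to 0.811% in RFPneg and 0.00944% to 0.0403% in RFPpos. Of the 7 neutrophil markers 6 were tested and 6 fell (0.238% to 0.721% against 0% to 0.0193%, with *Ly6g* at 0 in RFPpos), as did 6 of 6 tested oligodendrocyte markers of 8 listed (0.0996% to 0.281% against 0.00897% to 0.0185%) and 2 of 2 tested mural markers of 8 (0.0221% to 0.0523% against 0.00135% to 0.0116%, with *Kcnj8*, *Abcc9*, *Cspg4* and *Myh11* at 0 in RFPpos). Of the 8 astrocyte markers 3 fell, and their summed shares overlapped (0.395% to 0.578% against 0.0917% to 0.568%). The shares were also lower in RFPpos in every mouse for monocytes (0.0165% to 0.0313% against 0.000412% to 0.00224%, with *Ly6c2* and *Chil3* at 0 in RFPpos), T and NK cells (0.00867% to 0.0197% against 0.00240% to 0.00672%, with *Cd3e*, *Cd3g*, *Cd3d*, *Trbc2*, *Nkg7* and *Cd8a* at 0 in RFPpos), fibroblasts (0.00902% to 0.0262% against 0% to 0.0140%), neurons (0.0158% to 0.0303% against 0.00240% to 0.0121%) and erythrocytes (0.0394% to 0.194% against 0% to 0.0117%), while those of B cells and CNS-associated macrophages overlapped. In bulk samples, fewer cells of a type and less RNA per cell cannot be told apart. The part of these shifts in the differences between the populations was not tested.

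Promoter sequence is shown for the called members in which a searched motif stood before the RefSeq start, 1 gene higher and 1 lower in RFPpos. It was taken from the RefSeq windows of 250 bases before to 50 bases after each start (GRCm38.p6), which held 39 of the 42 genes. Capitals mark GAGGAAGT, a form of the sites bound by PU.1, the ETS factor of the macrophage lineage, in *Vav1* (chr17:57279059-57279099, plus strand), and TATAAA, the core of a promoter element near many starts, in *Vim* (chr2:13574249-13574310, plus strand), both printed in the direction of the gene.
Vav1: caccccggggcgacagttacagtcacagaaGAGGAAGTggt
Vim: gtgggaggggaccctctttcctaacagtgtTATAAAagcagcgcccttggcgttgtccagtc
The match began 11 bases before the RefSeq start in *Vav1* and 32 bases before it in *Vim*. The RefSeq start of *Vim* lies inside the GENCODE M21 gene, whose start is further upstream, so that its stretch is within the gene interval given below, while both annotations have the same start for *Vav1*. GAGGAAGT, searched on both strands, was in the windows of 2 members (*Vav1* and *Arpc1b*), which is 5.13% of 39 against 3.69% of 27025 genes. TATAAA, searched on the strand of the gene, was in 3 members (*Vim*, *Arhgdib* and *Cdc42*; 7.69% against 9.77%), and the CArG box of serum response factor, searched on both strands, was in 2 (*Actg1* and *Arpc4*; 5.13% against 1.81%). No member held more than 1 of these motifs. A match describes the letters of the window and was not examined as a binding site.

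The WAVE gene *Wasf2* and 5 of the 9 tested leukocyte members, *Nckap1l*, *Vav1*, *Aif1*, *Myo1f* and *Plek*, were higher in RFPpos, the scaffold gene *Iqgap1*, the membrane linker *Ezr* and the intermediate filament gene *Vim* were lower, and the 2 most abundant genes, *Tmsb4x* and *Actb*, passed the test in neither direction. Of the 42 members, 36 reached the minimum count and were tested with all 4210 tested genes (edgeR's quasi-likelihood test with the mouse as a block, Benjamini-Hochberg adjusted p under 0.05). The 11 members higher in RFPpos were 30.6% of those tested, against a background of 10.1% of all genes tested. The 3 lower members were 8.33% of those tested, against 11.6% of all genes. When a log2 fold change above 1 was also required, 4 members were higher (*Nckap1l*, *Vav1*, *Aif1* and *Plek*), against 5.75% of all genes, and this count was 2 without mouse 3 and 6 without mouse 1 or mouse 4. It was 3 under median-of-ratios scaling, DESeq2 and voom. The value of *Nckap1l* was 1.001 in the main fit and 0.978, 0.980 and 0.997 under these 3. All 3 lower members (*Iqgap1*, *Vim* and *Ezr*) were under −1, against 9.14% of all genes. In 10 members every RFPpos sample lay above every RFPneg sample, where 8.05% of all genes did, and in 2 members (*Vim* and *Iqgap1*) every RFPpos sample lay below, against 7.93%. The median log2 fold change of the 36 members was 0.38, while that of all genes tested was −0.03 and that of the 20 microglia markers was 1.19. Of the 14 called members, 7 kept their call without each mouse in turn (*Nckap1l*, *Vav1*, *Aif1*, *Plek*, *Cotl1*, *Iqgap1* and *Vim*). The higher members numbered 7 without mouse 2 or mouse 5, and the lower members 2 without mouse 1 or mouse 2. DESeq2 called 8 of the 14 in the same direction, without *Actr2*, *Capza2*, *Capzb*, *Myo1f*, *Tln1* and *Vim*, and 11 were called after all libraries were thinned to the smallest, without *Actr2*, *Capza2* and *Tln1*.

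**Figure D1:**
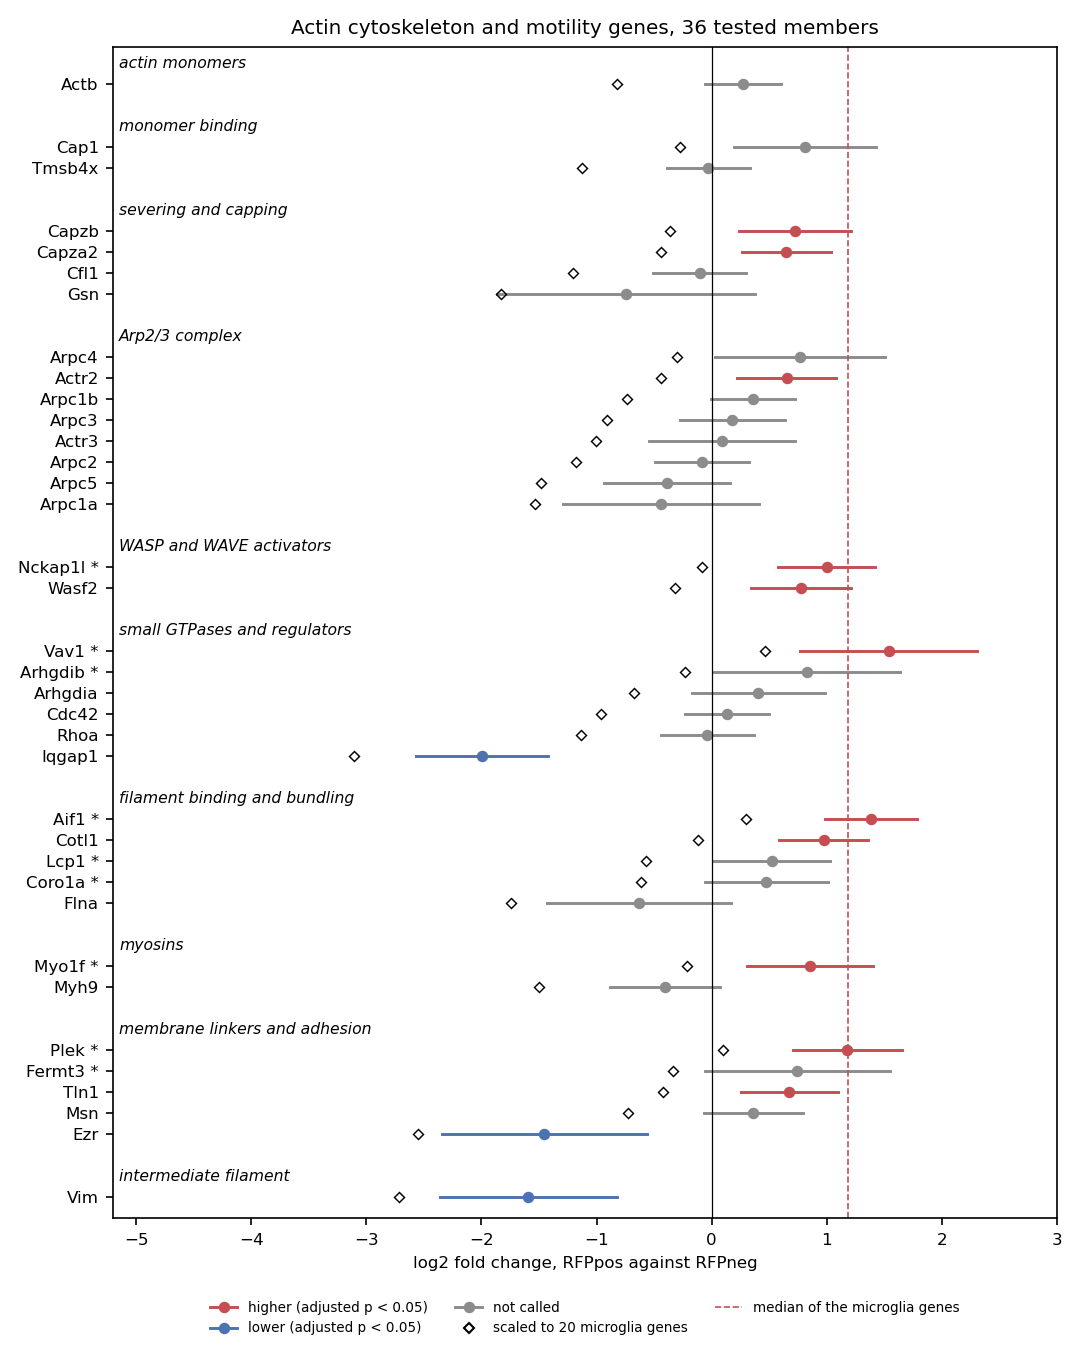
Log2 fold change of RFPpos against RFPneg for the 36 tested members, grouped by role, with bars for the 95% interval and red or blue points for members called higher or lower. Diamonds give the same value with library sizes taken from 20 microglia genes, the dashed line is the median of these microglia genes (1.19), and asterisks mark leukocyte members. The points of the leukocyte members all lie above 0, and the diamonds of all members but *Vav1*, *Aif1* and *Plek* lie below 0.

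The leukocyte members were examined apart from the other members. Of the 10, 9 were tested, and *Nckap1l*, *Vav1*, *Aif1*, *Myo1f* and *Plek* rose, while *Coro1a*, *Lcp1*, *Arhgdib* and *Fermt3* did not pass the test. The values of all 9 were positive, and their median log2 fold change was 0.86. Of the 32 more widely expressed members 27 were tested, of which 6 were higher (22.2%) and 3 lower (11.1%), with a median of 0.13. Of all genes tested 10.1% were higher and 11.6% lower, so that the share of lower genes in the widely expressed list was near that of all genes. The filter keeps genes with enough counts in 1 population, so these counts hold for the tested members and not for the whole list. In every mouse the summed share of the microglia markers was higher in RFPpos and those of neutrophils, monocytes and T and NK cells, other cells that use leukocyte genes, were lower, and their part in these counts was not tested. The direction of many members depended on how the libraries were scaled. A log2 fold change above 0 was found for 24 of the 36 tested members, and for 3 when scaled to microglia genes. That scaling lowers the values of all genes by a similar amount. The change of sign therefore follows from the scale and describes no property of the members. With library sizes taken from the sum of the 20 microglia genes, which moves the median of all genes from −0.03 to −1.12, 0 members were higher, 19 were lower and 17 were not called, and the medians were −0.21 for the leukocyte members and −0.96 for the widely expressed members. On that scale 11 of all genes tested (0.261%) were higher and 3017 (71.7%) lower.

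Beta-actin, the main actin of non-muscle cells, was among the 2 most abundant members. *Actb* (ENSMUSG00000029580, chr5:142903115-142906754, minus strand) had 3644, 3508, 2874, 2978 and 2879.7 CPM in the RFPneg samples of mice 1 to 5 and 4628, 4104, 3429.7, 3992 and 3143 CPM in the RFPpos samples. The level was higher in RFPpos in 5 of 5 mice, but the ranges overlapped. The log2 fold change was 0.27 (95% interval −0.06 to 0.60, adjusted p = 0.249 in edgeR), which is not past the threshold. Relative to the 20 microglia genes it was lower, at −0.82 (adjusted p = 7.21e-04 in edgeR). On that scale 71.7% of all genes tested were lower and their median was −1.12, which is below the value of *Actb*. The other non-muscle actin, *Actg1*, had 6 counts in RFPneg and 4 in RFPpos in all, with no more than 2 in a sample, so that no fold change is given. Of the 50-base windows in the last 300 bases of its coding transcripts, 44.5% were also found in transcripts of other genes, *Actb* among them, and 12.4% of those of *Actb* were. The row for reads with more than 1 alignment was 0 in every sample, so the levels of these 2 genes are uncertain.

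Among the monomer-binding members, the thymosin *Tmsb4x*, which sequesters actin monomers, had the highest mean CPM of all members over the 10 samples and in RFPneg, while in RFPpos its mean (3836 CPM) was just under that of *Actb* (3859 CPM). It had 3745, 3886, 4319, 2982 and 4235 CPM in RFPneg and 3572, 4473, 5079.5, 3517 and 2537 CPM in RFPpos. The RFPpos samples held both the highest and the lowest value, and the log2 fold change was −0.03 (95% interval −0.39 to 0.33, adjusted p = 0.943 in edgeR). Relative to the microglia genes *Tmsb4x* was lower, at −1.12 on the log2 scale (adjusted p = 3.70e-05 in edgeR). The median of all genes tested was also −1.12 on that scale, and 71.7% of them were lower. *Cap1*, a cyclase-associated protein that recycles actin monomers, had 73.3, 61.2, 57.7, 105 and 80.1 CPM in RFPneg and 198, 189.8, 108, 99.8 and 98.8 CPM in RFPpos. Its RFPpos samples of mice 1 to 3 were above every RFPneg sample, and those of mice 4 and 5 were within the RFPneg range. The log2 fold change was 0.81 (SE 0.29, 95% interval 0.19 to 1.43, adjusted p = 0.0575 in edgeR), a value that was past the threshold under several alternatives, among them the fits without the mouse block (0.0343) and to all genes of at least 1 count (0.0441). With 1 mouse left out, *Cap1* was called in 1 of 5 fits, and the adjusted p in edgeR ranged from 0.0235 to 0.227. DESeq2 gave an adjusted p of 0.161. Relative to the microglia genes *Cap1* was at −0.27 on the log2 scale (adjusted p = 0.433 in edgeR). In *Tmsb10*, a second thymosin, 39.3% of the 3′ windows were shared with *Gm9844*, a gene with 0 counts. *Tmsb10* was under the minimum with 43 counts in RFPneg and 5 in RFPpos. It had 5.64, 10.2, 36.1, 48.3 and 43.4 CPM in RFPneg, while in RFPpos all 5 counts came from mouse 4 (19.96 CPM) and the other 4 samples had 0, which allows up to 3 counts each. In the fit to all 18571 genes with at least 1 count its log2 fold change was −3.07 (adjusted p = 0.00837 in edgeR), and the adjusted p was 0.141 on leaving out mouse 3 and 0.0905 on leaving out mouse 5. Without mouse 4 no count of *Tmsb10* was left in RFPpos, and the fitted value of −5.57 (adjusted p = 0.00808 in edgeR) then depends on the prior count and is no bound. *Pfn1*, a profilin, had 19 and 22 counts and was not tested in the main fit.

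Of the 6 genes for capping and severing 4 were tested. The 2 tested subunits of the capping protein rose, where 10.1% of all genes tested were higher, while cofilin and gelsolin did not pass the test. *Capza2* (ENSMUSG00000015733, chr6:17636234-17666972, plus strand), a subunit of the protein that caps the growing end of filaments, had 265, 219, 257, 173 and 267 CPM in RFPneg and 449, 352, 354, 331 and 367 CPM in RFPpos, with no overlap. It rose by a log2 fold change of 0.65 (SE 0.18, adjusted p = 0.016 in edgeR), and lost its call on leaving out mouse 2 (0.0541). Its partner subunit *Capzb* (ENSMUSG00000028745, chr4:139192899-139291818, plus strand) had 135, 163, 135, 76.5 and 123 CPM in RFPneg and 207, 242, 148, 212 and 239 CPM in RFPpos. The ranges overlapped, since the RFPpos sample of mouse 3 was within the RFPneg range. It rose by 0.73 on the log2 scale (SE 0.23, adjusted p = 0.0297 in edgeR). The call of *Capzb* was lost in 3 fits with 4 mice, at 0.0621 on leaving out mouse 2, 0.122 on leaving out mouse 4 and 0.0856 on leaving out mouse 5. *Capza1* had 24 counts in RFPneg and 28 in RFPpos, and 45.6% of its 3′ windows were shared with other genes. *Capg* had 19 and 16 counts. Cofilin, *Cfl1*, which severs old filaments, had 400.5, 260.1, 354, 254 and 244 CPM in RFPneg and 431, 266, 341, 275 and 144 CPM in RFPpos, and its log2 fold change of −0.10 (95% interval −0.51 to 0.30, adjusted p = 0.773 in edgeR) did not differ from 0 beyond its error. *Gsn*, gelsolin, had 135, 61.2, 62.5, 60.4 and 60.1 CPM in RFPneg and 0, 17.3, 53.8, 99.8 and 70.0 CPM in RFPpos, with a log2 fold change of −0.74 (95% interval −1.87 to 0.38, adjusted p = 0.371 in edgeR). The RFPpos sample of mouse 1 had no count of *Gsn*, which allows 13.5 CPM there, and the log2 fold change was −0.13 without mouse 1 and −1.20 without mouse 4.

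The 8 members of the Arp2/3 complex were all tested and had a median log2 fold change of 0.14. *Actr2* (ENSMUSG00000020152, chr11:20062304-20112913, minus strand), 1 of the 2 actin-related subunits that seed the branch, was the only one called, which is 12.5% of the 8 and near the 10.1% of all genes tested that were higher. It had 147, 163, 111, 137 and 140.1 CPM in RFPneg and 211, 255, 229, 212 and 189 CPM in RFPpos, with no overlap, and a log2 fold change of 0.65 (SE 0.20, adjusted p = 0.0275 in edgeR). The call was lost at 0.076 on leaving out mouse 2, 0.117 on leaving out mouse 3 and 0.0511 on leaving out mouse 4. *Actr3*, the second actin-related subunit, had a log2 fold change of 0.09 (95% interval −0.54 to 0.73), and 54.9% of its 3′ windows were shared with other genes. *Arpc2*, the most abundant subunit, had 519, 617, 565, 656 and 614 CPM in RFPneg and 714, 597, 641, 551 and 371 CPM in RFPpos, where mouse 5 was the lowest of all samples. Its log2 fold change was −0.08 (95% interval −0.49 to 0.33, adjusted p = 0.827 in edgeR). *Arpc4* had the highest point value of the complex, with 11.3, 76.5, 50.5, 101 and 66.7 CPM in RFPneg and 89.9, 69.0, 108, 103.8 and 140.0 CPM in RFPpos and a log2 fold change of 0.77 (95% interval 0.03 to 1.51, adjusted p = 0.136 in edgeR). The gene overlaps *Ttll3* on the same strand, and 15.3% of its 3′ windows were shared with it. In *Arpc1b*, the form of the regulatory subunit that is most abundant in blood cells, with 361, 382, 389.6, 402 and 324 CPM in RFPneg and 485, 449, 498, 519 and 441 CPM in RFPpos, every RFPpos sample lay above every RFPneg sample, but the log2 fold change of 0.36 (95% interval −0.01 to 0.72, adjusted p = 0.161 in edgeR) did not pass the test. The log2 fold changes of *Arpc3*, *Arpc5* and *Arpc1a* were 0.18, −0.39 and −0.44, and none was called (adjusted p 0.62, 0.335 and 0.504 in edgeR). With 1 mouse left out, the values were 0.11 to 0.24 for *Arpc3* and −0.52 to −0.23 for *Arpc5*. Those of *Arpc1a* were −0.65 to −0.35 without mouse 1, 2, 3 or 5. Without mouse 4 *Arpc1a* was under the minimum, and the fit to all genes with at least 1 count gave −0.08. Relative to the microglia genes 6 of the 8 subunits were lower, where 71.7% of all genes tested were, and *Arpc4* and *Actr2* were not called.

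Of the 3 activators of the complex 2 were tested and both rose, where 10.1% of all genes tested were higher. *Wasf2* (ENSMUSG00000028868, chr4:133130505-133199756, plus strand), the WAVE protein of most non-neuronal cells, had 248, 229, 192, 274 and 177 CPM in RFPneg and 508, 338, 291, 359 and 449 CPM in RFPpos. The ranges did not overlap, and the log2 fold change was 0.78 (SE 0.21, adjusted p = 0.0108 in edgeR), which was lost on leaving out mouse 5 (0.0511). *Nckap1l* (ENSMUSG00000022488, chr15:103453794-103498810, plus strand), also known as Hem1, is the blood cell form of a scaffold in the WAVE complex. It had 158, 138, 101, 117 and 130.1 CPM in RFPneg and 292, 245, 229, 239.5 and 276 CPM in RFPpos, so that every RFPpos sample was above every RFPneg sample. The log2 fold change was 1.00 (SE 0.20, adjusted p = 0.00118 in edgeR) and kept its call without each mouse in turn. *Was*, the WASP protein of blood cells, had 27 counts in RFPneg and 75 in RFPpos and lay under the minimum. It had 22.6, 10.2, 28.9, 24.1 and 10.0 CPM in RFPneg and 31.5, 65.6, 85.2, 19.96 and 103 CPM in RFPpos, where mouse 4 was within the RFPneg range. In the fit to all genes with at least 1 count its log2 fold change was 1.63 (adjusted p = 0.0135 in edgeR), which was lost at 0.107 on leaving out mouse 2, 0.0723 on leaving out mouse 3 and 0.212 on leaving out mouse 5, and 20.7% of its 3′ windows were also found in other genes. The summed share of the microglia markers was higher in RFPpos in every mouse, and relative to these markers *Wasf2* had −0.32, *Nckap1l* −0.09 and *Was* 0.49 on the log2 scale, of which none was called.

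The small GTPases *Cdc42* and *Rhoa* passed the test in neither direction, while the regulator *Vav1* rose and *Iqgap1* fell. *Cdc42*, a GTPase that acts upstream of WASP, had 378, 326, 356, 309.9 and 297 CPM in RFPneg and 386, 393, 395, 351 and 309 CPM in RFPpos. The values were higher in RFPpos in 5 of 5 mice and overlapped, with a log2 fold change of 0.13 (95% interval −0.23 to 0.50, adjusted p = 0.66 in edgeR). *Rhoa*, which drives contractile fibres, had a log2 fold change of −0.04 (95% interval −0.44 to 0.37, adjusted p = 0.935 in edgeR). *Vav1* (ENSMUSG00000034116, chr17:57279100-57328031, plus strand), the blood cell exchange factor that loads small GTPases with GTP, whose promoter stretch holds GAGGAAGT, had 45.1, 15.3, 31.3, 28.2 and 33.4 CPM in RFPneg and 76.4, 114, 85.2, 103.8 and 74.1 CPM in RFPpos. It had the largest rise of the tested members, with no overlap, a log2 fold change of 1.54 (SE 0.37, adjusted p = 0.00461 in edgeR) and a call without each mouse in turn. The inhibitors *Arhgdia* and *Arhgdib*, which hold small GTPases in the cytosol, were not called (log2 fold change 0.41, adjusted p = 0.333 and 0.83, adjusted p = 0.141 in edgeR). *Iqgap1* (ENSMUSG00000030536, chr7:80711583-80825974, minus strand) is a scaffold that binds active Cdc42 and Rac and links them to actin. It had 141, 229, 207, 254 and 140.1 CPM in RFPneg and 13.5, 65.6, 58.3, 59.9 and 49.4 CPM in RFPpos, and the highest RFPpos value was under the lowest RFPneg value. *Iqgap1* fell by 2.00 on the log2 scale (SE 0.27, 95% interval −2.57 to −1.43, adjusted p = 2.71e-05 in edgeR), the largest fall of the tested members, and it was called without each mouse in turn.

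Proteins that bind and bundle filaments were led by *Aif1* and *Cotl1*. *Aif1* (ENSMUSG00000024397, chr17:35170991-35176068, minus strand) encodes Iba1, a calcium-binding actin bundler that is widely used to stain microglia. It had 259, 133, 178, 113 and 177 CPM in RFPneg and 472, 373, 547, 323 and 490.1 CPM in RFPpos, with no overlap. The log2 fold change was 1.39 (SE 0.19, adjusted p = 2.82e-05 in edgeR), above the median of the microglia genes, and relative to those genes it was 0.30 (adjusted p = 0.2 in edgeR). *Cotl1* (ENSMUSG00000031827, chr8:119809222-119840544, minus strand), a coactosin-like protein that binds filaments, was the most abundant of this group. It had 254, 204, 195, 266 and 220.2 CPM in RFPneg and 395, 442, 484, 487 and 424 CPM in RFPpos, so that each RFPpos value exceeded all RFPneg values. The log2 fold change was 0.97 (SE 0.18, adjusted p = 6.72e-04 in edgeR), and both *Aif1* and *Cotl1* were called without each mouse in turn. Relative to the microglia genes *Cotl1* was at −0.12 on the log2 scale (adjusted p = 0.598 in edgeR). The leukocyte bundler *Lcp1*, L-plastin, and the coronin *Coro1a* were not called, at 0.52 and 0.48 on the log2 scale (adjusted p 0.14 and 0.204 in edgeR). *Lcp1* was past the threshold without mouse 1 (log2 fold change 0.73, adjusted p = 0.037 in edgeR). Its log2 fold change was 0.30 without mouse 2 and 0.37 without mouse 4, and neither was called. *Flna*, the cross-linker filamin A, had the lower value in RFPpos in 5 of 5 mice and was not called (−0.63 on the log2 scale, 95% interval −1.43 to 0.17, adjusted p = 0.27 in edgeR).

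Of the 2 myosins, the single-headed leukocyte myosin *Myo1f* (ENSMUSG00000024300, chr17:33555707-33607764, plus strand) had 124, 25.5, 72.1, 72.4 and 70.1 CPM in RFPneg and 148, 62.1, 152, 148 and 128 CPM in RFPpos. The value rose in 5 of 5 mice, although mouse 2 was lowest in both populations and the ranges overlapped. The log2 fold change was 0.86 (SE 0.26, adjusted p = 0.0244 in edgeR), and was lost at 0.0632 on leaving out mouse 2, 0.0898 on leaving out mouse 3, 0.0673 on leaving out mouse 4 and 0.0524 on leaving out mouse 5, and at 0.0889 when the mouse block was dropped. *Myh9*, the heavy chain of non-muscle myosin IIA that contracts filaments, had 214, 189, 147, 225 and 210.2 CPM in RFPneg and 207, 162, 143, 156 and 90.6 CPM in RFPpos. It was lower in RFPpos in 5 of 5 mice, by amounts within the error of the test (log2 fold change −0.40, 95% interval −0.88 to 0.07, adjusted p = 0.231 in edgeR). Relative to the microglia genes *Myh9* stood at −1.50 on the log2 scale (adjusted p = 5.47e-05 in edgeR). The median of all genes tested was −1.12 on that scale, and 71.7% of them were lower.

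Proteins that tie actin to the membrane and to integrins moved in both directions. *Plek* (ENSMUSG00000020120, chr11:16971206-17052381, minus strand), pleckstrin, is a leukocyte and platelet protein that binds membrane phosphoinositides and shapes the cortical cytoskeleton. It had 276, 117, 113, 157 and 194 CPM in RFPneg and 341, 373, 457, 327 and 367 CPM in RFPpos, with no overlap, and a log2 fold change of 1.18 (SE 0.23, adjusted p = 7.65e-04 in edgeR) that was called without each mouse in turn. *Tln1* (ENSMUSG00000028465, chr4:43531519-43562691, minus strand), talin, which couples integrins to actin, had 220.0, 229, 188, 181 and 143 CPM in RFPneg and 315, 286, 327, 271 and 325 CPM in RFPpos, with no overlap. It rose by 0.68 on the log2 scale (SE 0.20, adjusted p = 0.02 in edgeR). The call of *Tln1* was lost at 0.0723 on leaving out mouse 3 and 0.0806 on leaving out mouse 5. *Fermt3*, the kindlin of blood cells that activates integrins together with talin, had a log2 fold change of 0.75 (95% interval −0.06 to 1.55, adjusted p = 0.185 in edgeR). This value was 0.39 without mouse 3 and 1.04 without mouse 1. Of the 2 ERM members, which anchor filaments to the membrane, *Ezr* fell and *Msn* was not called. *Msn*, moesin, had a log2 fold change of 0.36 (95% interval −0.07 to 0.79, adjusted p = 0.237 in edgeR), while *Ezr* (ENSMUSG00000052397, chr17:6738041-6782784, minus strand), ezrin, had 107, 86.7, 77.0, 96.6 and 56.7 CPM in RFPneg and 8.99, 13.8, 67.2, 43.9 and 28.8 CPM in RFPpos. *Ezr* was lower in RFPpos in 5 of 5 mice with overlapping ranges, and its RFPpos samples of mice 1 and 2 were the lowest. It fell by 1.45 on the log2 scale (SE 0.42, adjusted p = 0.0184 in edgeR), and was lost at 0.0626 on leaving out mouse 1 and 0.0878 on leaving out mouse 2.

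*Vim* (ENSMUSG00000026728, chr2:13573927-13582826, plus strand), vimentin, is an intermediate filament protein and not an actin-binding one, and it is well known in endothelial, mural and reactive astroglial cells. It had 192, 352, 296, 246 and 197 CPM in RFPneg and 0, 69.0, 184, 95.8 and 119 CPM in RFPpos. The highest RFPpos value, in mouse 3, was under the lowest RFPneg value, and the RFPpos sample of mouse 1 had no count, which allows 13.5 CPM. *Vim* fell by 1.59 on the log2 scale (SE 0.37, adjusted p = 0.00363 in edgeR) and was called without each mouse in turn, whereas DESeq2 gave an adjusted p of 0.0641. The endothelial, mural and fibroblast marker shares were lower in RFPpos in every mouse as well. The RFPpos sample of mouse 1, in which *Vim* and *Gsn* had no count and *Iqgap1* and *Ezr* were at their lowest, also had the lowest summed share of the astrocyte markers, 0.0917% against 0.279% to 0.568% in the other RFPpos samples, and the lowest share of the endothelial markers. The part of these cells in the lower values was not tested.

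**Figure D2:**
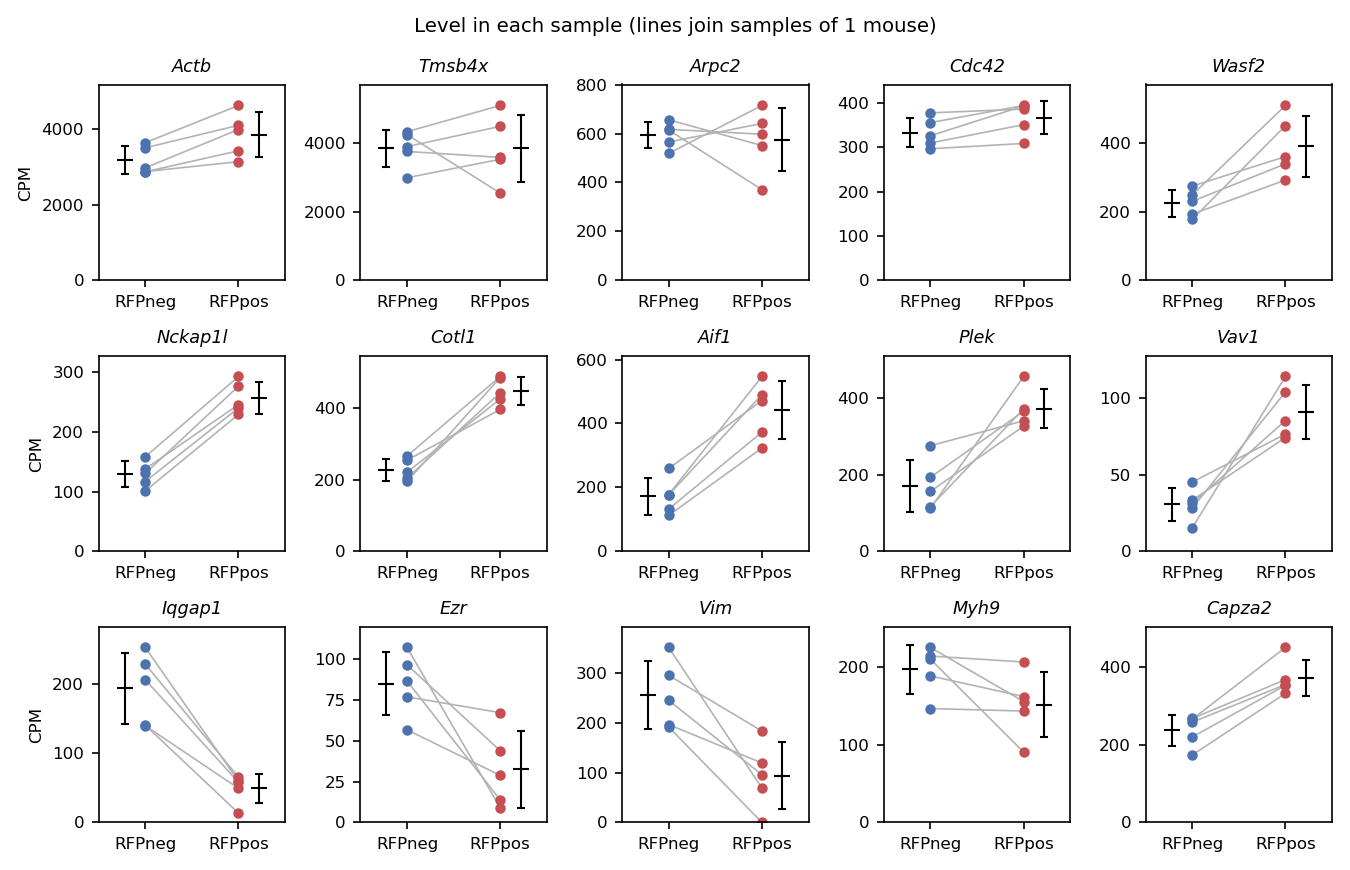
CPM of 15 members in each sample, with lines joining the RFPneg and RFPpos samples of 1 mouse and bars for the mean and SD of 5 samples beside them. The abundant *Actb*, *Tmsb4x*, *Arpc2* and *Cdc42* overlap between the populations, *Nckap1l*, *Cotl1*, *Aif1*, *Plek* and *Vav1* do not overlap and are higher in RFPpos, and *Iqgap1* and *Vim* do not overlap and are lower.

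Several members have a relative that takes the same role in other cells, and the share of a gene in the counts of its family does not depend on how libraries are scaled. Of 23 such families, 16 had at least 20 counts in every sample, and in 8 of these the share moved in the same direction in all 5 mice. In an exact permutation test within mice (two-sided), each of these 8 had 2 of 32 assignments as large, p = 0.0625, which is the smallest value that 5 pairs can give, and 0.125 after adjustment over the 16 families, so that no family could pass 0.05. The leukocyte form had the larger share in the RFPpos sample of every mouse in the families of kindlin, plastin, the Hem scaffold and Iba1. This did not hold for *Rac2* or for the leukocyte member *Coro1a*. The mean share of *Rac2* in the counts with *Rac1* was 22.02% in RFPneg and 18.34% in RFPpos, and it was higher in RFPpos in 1 of 5 mice. For *Coro1a* in the counts with *Coro1b* and *Coro1c* the means were 48.87% and 50.996%, with 3 of 5 mice higher in RFPpos. *Fermt3* made up 35.6, 16.7, 8.42, 19.05 and 20.8% of the counts of *Fermt3* and *Fermt2* in the RFPneg samples of mice 1 to 5, and 92, 55.9, 57.9, 60.5 and 34.5% in the RFPpos samples. The mean share of *Fermt3* was 20.1% ± 9.87 and 60.2% ± 20.6 (SD, n = 5 each). The relative *Fermt2*, the kindlin of adherent cells, had 214, 204, 209, 137 and 204 CPM in RFPneg and 8.99, 51.8, 71.7, 59.9 and 78.3 CPM in RFPpos, where mouse 1 was the lowest. *Fermt3* had 118, 40.8, 19.2, 32.2 and 53.4 CPM in RFPneg and 103, 65.6, 98.6, 91.8 and 41.2 CPM in RFPpos, with overlapping ranges.

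*Lcp1* made up 79.7, 43.8, 46.5, 40.2 and 51.1% of the counts of *Lcp1* and *Pls3*, the plastin of non-blood cells, in RFPneg and 94.5, 91.3, 71.2, 82.8 and 76.6% in RFPpos. The RFPneg sample of mouse 1 stood above the lowest RFPpos samples. *Pls3* itself had 73.3, 184, 219, 197 and 143 CPM in RFPneg and 13.5, 38.0, 94.1, 63.9 and 45.3 CPM in RFPpos, and *Lcp1* had 288, 143, 190.0, 133 and 150.2 and 234, 397, 233, 307 and 148 CPM. *Nckap1l* made up 66.7, 39.1, 50, 47.5 and 56.5% of the counts with its relative *Nckap1* in RFPneg and 98.5, 78.0, 68, 74.1 and 74.4% in RFPpos. *Nckap1* had 79.0, 214, 101, 129 and 100.1 CPM in RFPneg and 4.49, 69.0, 108, 83.8 and 94.7 CPM in RFPpos, where mice 1 and 2 were below every RFPneg sample and mice 3 to 5 were within the RFPneg range. *Aif1* made up 86.8, 74.3, 86.0, 75.7 and 75.7% of the counts with *Aif1l* in RFPneg and 100, 97.3, 100, 93.1 and 100% in RFPpos, with no overlap. *Aif1l* had 39.5, 45.9, 28.9, 36.2 and 56.7 CPM in RFPneg and 0, 10.4, 0, 24.0 and 0 CPM in RFPpos, and so no count in mice 1, 3 and 5.

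Families of more widely expressed genes were also among the 8. *Msn* made up 21.4, 29.1, 27.5, 23.8 and 34.6% of the ERM counts (*Msn*, *Ezr* and *Rdx*) in RFPneg and 43.2, 48.3, 36.9, 41.1 and 44.7% in RFPpos, with no overlap, a mean of 27.3% against 42.8%. *Rdx*, radixin, had 389, 398, 438, 394 and 440.5 CPM in RFPneg and 216, 300.3, 247, 367 and 334 CPM in RFPpos, and *Msn* had 135, 199, 195, 153 and 264 and 171, 293, 184, 287 and 292 CPM. *Cfl1* made up 73.2, 65.4, 69.7, 58.9 and 59.3% of the counts with *Cfl2* and *Dstn*, the other members of the cofilin family, in RFPneg and 85.7, 79.4, 82.6, 70.4 and 61.4% in RFPpos. *Cfl2*, the cofilin of muscle and some other cells, had 95.9, 91.8, 91.4, 80.5 and 63.4 CPM in RFPneg and 31.5, 24.2, 31.4, 31.9 and 28.8 CPM in RFPpos, with no overlap. *Dstn*, destrin, had 50.8, 45.9, 62.5, 96.6 and 103 CPM in RFPneg and 40.4, 44.9, 40.3, 83.8 and 61.8 CPM in RFPpos. *Wasf2* made up 93.6, 93.8, 82.5, 88.3 and 76.8% of the counts of the WAVE genes in RFPneg and 99.1, 98, 92.9, 94.7 and 95.6% in RFPpos, a mean of 87.0% against 96.1%. *Wasf1* had 11.3, 0, 9.62, 0 and 13.3 CPM in RFPneg and 0, 0, 0, 3.99 and 4.12 CPM in RFPpos, and *Wasf3* had 5.64, 15.3, 31.3, 36.2 and 40.0 and 4.49, 6.90, 22.4, 15.97 and 16.5 CPM, so that both rest on few counts (10 and 2 of *Wasf1*, 38 and 16 of *Wasf3*). The mean share of *Tmsb4x* against *Tmsb10* was 99.2% and 99.9%. The shares of *Arpc1b*, *Actb*, *Rac2*, *Myh9*, *Capza1*, *Coro1a*, *Tln1* and *Arpc5* in their families did not move the same way in all mice. The *Arpc1b* share had a mean of 87.8% in RFPneg and 92.7% in RFPpos and was higher in RFPpos in 4 of 5 mice (exact p = 0.125), a difference of 4.94 percentage points that was 2.97 without mouse 4. Its relative *Arpc1a* had 56.4, 30.6, 45.7, 109 and 30.03 CPM in RFPneg and 31.5, 44.9, 35.9, 47.9 and 28.8 CPM in RFPpos, where the RFPneg sample of mouse 4 was the highest.

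**Figure D3:**
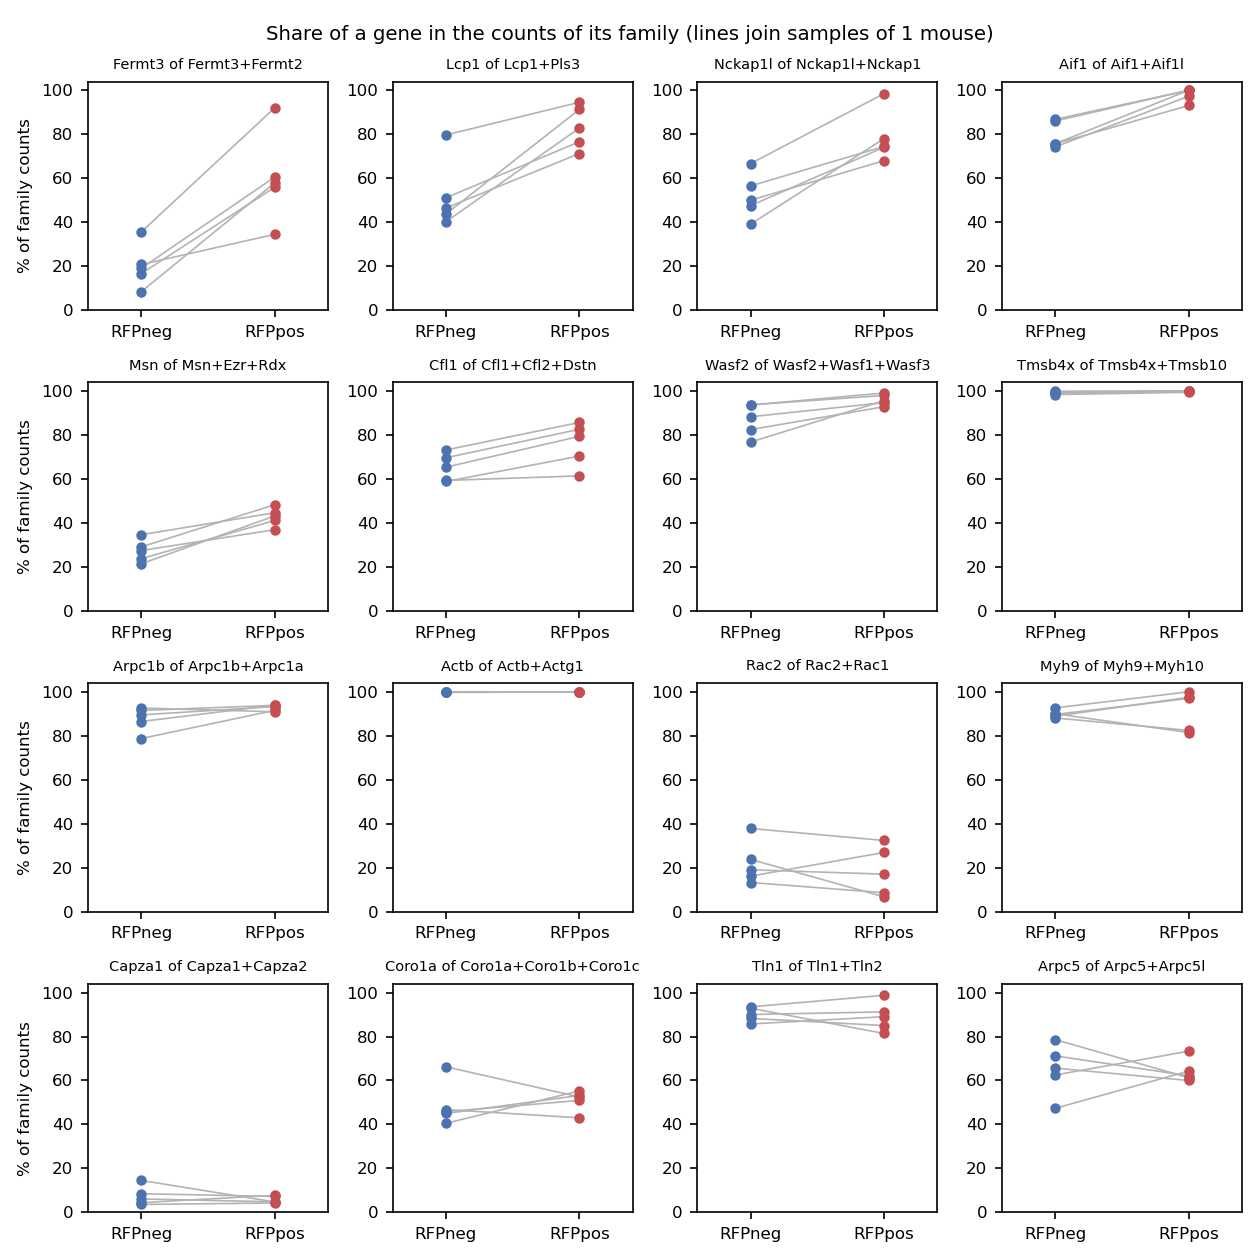
Share of 1 gene in the counts of its family, in percent, for the 16 families with at least 20 counts in every sample, with lines joining the samples of 1 mouse. The lines of *Fermt3*, *Lcp1*, *Nckap1l*, *Aif1*, *Msn*, *Cfl1*, *Wasf2* and *Tmsb4x* rise in every mouse, and those of the other 8 families cross or lie flat.

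The 42 members together took 1.36%, 1.31%, 1.28%, 1.17% and 1.26% of the counts on genes in the RFPneg samples and 1.58%, 1.60%, 1.61%, 1.47% and 1.23% in the RFPpos samples. The share was higher in RFPpos in mice 1 to 4 and lower in mouse 5. The RFPpos sample of mouse 5 also had the largest share of reads on no gene (48.6%, other RFPpos samples 38.4% to 42.1%). It had the fewest genes detected of all samples (10308), and the part of this in the lower share was not tested. The mean difference was 0.223 percentage points (SD 0.144 over 5 mice), with an exact two-sided permutation p within mice of 0.125. *Actb* and *Tmsb4x* are the 2 largest parts of this sum. The 10 leukocyte members took 0.0968% of the counts in RFPneg and 0.191% in RFPpos on average, with the larger share in RFPpos in 5 of 5 mice and no overlap (exact two-sided permutation p within mice 0.0625, the smallest possible). For the 32 widely expressed members the means were 1.18% and 1.31%, higher in 4 of 5 mice (exact p = 0.125).

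**Figure D4:**
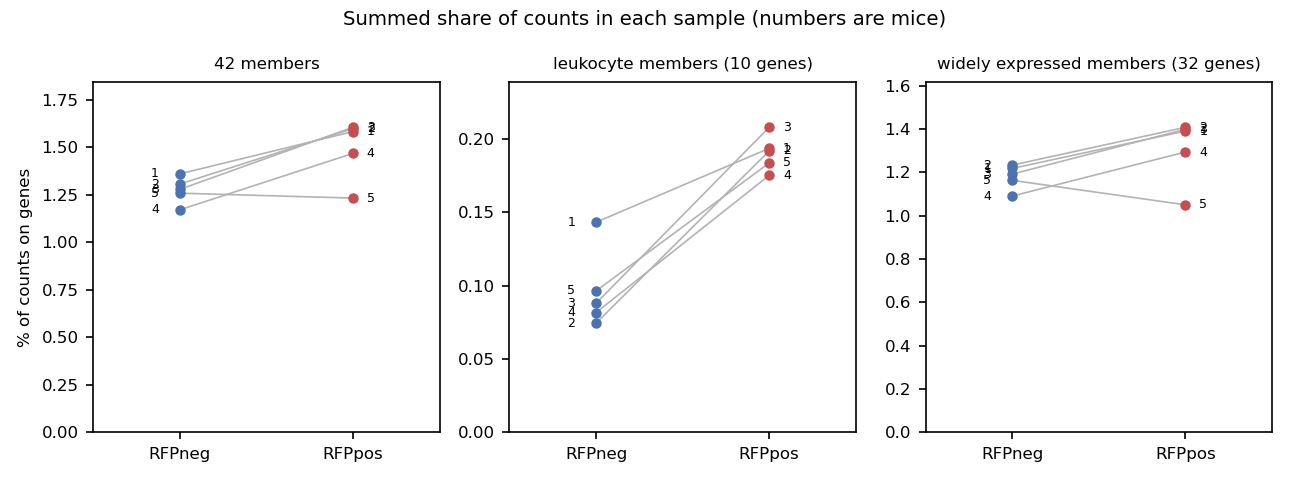
Summed share of the counts on genes, in percent, for all 42 members, the 10 leukocyte members and the 32 widely expressed members, with the mouse number beside each sample. The leukocyte members rise in every mouse, and the other 2 sums rise in mice 1 to 4 and fall in mouse 5.

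A further 100 actin genes outside the list were counted for context. Of these, 66 were tested, and 15 were higher and 15 lower in RFPpos, 22.7% each, against 10.1% and 11.6% of all genes tested. Their median log2 fold change was 0.000865, where the members had 0.38. The 4 genes with the smallest p-values among those that rose were *Apbb1ip* (1.59, adjusted p = 3.59e-06 in edgeR), an adaptor that links Rap1 to talin, *Ssh2* (1.19, 1.86e-04), a phosphatase that activates cofilin, *Dock10* (1.27, 2.56e-04), an exchange factor for Cdc42, and *Cyfip1* (1.05, 3.48e-04), a subunit of the WAVE complex. *Apbb1ip* was the only one of the 66 that was also higher relative to the microglia genes (0.51, adjusted p = 0.0258 in edgeR), where 0.261% of all genes tested were. The 4 that led the lower genes were *Sptbn1* (−3.00, adjusted p = 8.37e-09 in edgeR), a spectrin of the membrane skeleton, the tropomyosins *Tpm4* (−2.13, 2.99e-05) and *Tpm1* (−2.08, 1.93e-04), and *Pls3* (−1.75, 1.10e-04). *Sptbn1* fell from 609 ± 217 to 75.8 ± 22.1 CPM (SD, n = 5 each). By role, and against the same 10.1% and 11.6% of all genes, 3 of 9 tested activators of WASP and WAVE rose and 0 fell. Of 17 tested regulators of small GTPases 6 rose and 2 fell. Of 13 filament-binding genes 2 rose and 5 fell, of 8 membrane linkers 1 rose and 4 fell, and of 4 myosin genes 0 rose and 2 fell. Of 7 formin and Ena/VASP genes 2 rose and 0 fell, of 5 severing and capping genes 0 rose and 1 fell, of 2 monomer-binding genes 1 rose and 1 fell, and the 1 Arp2/3 gene was not called. Relative to the microglia genes 44 of the 66 were lower, where 71.7% of all genes tested were.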

How the data were processed

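Bulk RNA sequencing of 10 samples (5 RFPneg and 5 RFPpos) was analysed, and single-cell data were left out. The authors made 3′ libraries of the QuantSeq FWD kind from sorted cells, ran Lexogen's UMI pipeline (unique molecular identifiers) and deposited counts per gene without normalization. The submitters' processing notes name the build mm10, and the aligner and annotation of the counts are not given in the sources used here. Depth was between 177287 and 415834 counts on genes per sample, where 10 counts in the median library are 40.7 CPM, and limits from counts of 0 cover counting error only. Reads on no gene (32.1% to 48.6%) and ambiguous reads (0.295% to 0.436%) were left out of library sizes. Symbols and coordinates were taken from GENCODE M21 (GRCm38) and matched 47224 of 47643 identifiers.

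Counts were fitted in R 4.3.3 with edgeR 4.0.16 (TMM scaling, filterByExpr with at least 10 counts in the median library in 5 samples and 15 in all, quasi-likelihood test, mouse as a block), and p-values were adjusted by Benjamini-Hochberg over 4210 genes. Scripts were tested on simulated data. Both populations came from the same mice, which gives the pairing. The correlations of deviations within mice were 0.22, −0.04, 0.14, −0.01 and 0.02. Exact permutation tests of family shares and sums exchanged labels within mice, in Python 3.11.15 and scipy 1.17.1. Alternatives were median-of-ratios scaling, library size only, the 20 microglia genes, no filter, the likelihood ratio test, DESeq2 1.42.0, limma 3.58.1 with voom, no replicate block, thinned counts and each mouse left out. For members under the minimum, the fit without a filter was also run on the microglia scale and without each mouse, which was chosen after the data were seen. Its value without mouse 4 is also given for *Arpc1a*, which was under the minimum there. Values in every sample are given for the most abundant and the most changed tested member of each role, for all tested members of roles with up to 2 members, for both sides of most described family shares and for other called members. The family shares of *Coro1a* and *Rac2* are given as means with the number of mice higher in RFPpos, without the levels of their relatives. Of the other actin genes, 4 that rose and 4 that fell are named, by smallest p-value. The members, marker lists and other lists were chosen with earlier results of these data known.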

Additional observations from a re-analysis of the deposited data

Results flagged for a closer look

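In 122 groups of 5 values (the 42 members, 16 family shares and the summed shares of 3 lists, namely all members, the leukocyte members and the widely expressed members, in each population), the highest or lowest sample was compared with the other 4, and 8 samples stood apart where chance gives about 1 in 20 groups. Of these, 5 were levels of members. The RFPpos sample of mouse 4 had 19.96 CPM of *Tmsb10*, against 0 in the other RFPpos samples. The RFPneg sample of mouse 4 had 169 CPM of *Arpc5* (others 101 to 110.1), the RFPpos sample of mouse 5 had 98.85 CPM of *Arhgdib* (others 49.42 to 55.89), the RFPpos sample of mouse 2 had 62.13 CPM of *Myo1f* (others 127.7 to 152.4), and the RFPneg sample of mouse 1 had 135.4 CPM of *Gsn* (others 60.06 to 62.52). The others were the family shares of *Tmsb4x* against *Tmsb10* in the RFPpos sample of mouse 4 (99.44%, others 100%), *Coro1a* among the coronins in the RFPneg sample of mouse 3 (66.22%, others 40.54% to 46.77%) and *Lcp1* against *Pls3* in the RFPneg sample of mouse 1 (79.69%, others 40.24% to 51.14%).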

How the results depend on the processing

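With library sizes from the 20 microglia genes, 0 members were called higher (0 with a log2 fold change above 1) and 19 lower, against 11 and 3, and of all genes 11 were higher and 3017 lower. The median log2 fold change turned to −0.70 for the members, −0.21 for the leukocyte members and −0.96 for the widely expressed members. The members called on 1 of the 2 scales that turned negative were *Actb* (−0.82), *Arpc1b* (−0.74), *Arpc3* (−0.91), *Actr2* (−0.44), *Actr3* (−1.01), *Capza2* (−0.44), *Capzb* (−0.36), *Wasf2* (−0.32), *Nckap1l* (−0.087), *Cdc42* (−0.96), *Lcp1* (−0.57), *Msn* (−0.72), *Myo1f* (−0.21), *Tln1* (−0.42) and *Cotl1* (−0.12). This scale sets the microglia genes equal by construction. It lowers the values of all genes by a similar amount, so that these changes of sign follow from the scale. *Iqgap1*, *Ezr* and *Vim*, already lower in the main fit, were lower on this scale too, which follows from the same shift.

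With all genes of at least 1 count, 834 genes were called lower, and DESeq2 called 6 members higher; the causes were not tested. Without each mouse in turn, between 7 and 12 members were called higher, and between 2 and 6 with a log2 fold change above 1. Without the replicate block 11 members were higher and 3 lower, 13 of the 14 calls (all but *Myo1f*) being kept, and the summed share of the members differed by the same 0.223 percentage points with p = 0.0397 over all 10 samples (exact permutation) in place of 0.125 within mice. In the same exact permutation test without pairing the share of the leukocyte members had p = 0.00794 in place of 0.0625, and 7 of the 16 family shares (*Arpc1b*, *Wasf2*, *Nckap1l*, *Lcp1*, *Msn*, *Fermt3* and *Aif1*) had unadjusted p from 0.00794 to 0.0397. The calls of all 14 members were kept under median-of-ratios scaling, library size only, the likelihood ratio test, voom and no filter. With 5 pairs an exact test cannot go below 0.0625. At this depth the 6 members under the minimum could not be compared with the precision of the others.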
